A study of Mus musculus with 12 samples.

Results

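The genes described here are the drug-metabolizing cytochrome P450 enzymes of families 1 to 4 in mouse liver and in liver tumors. They were chosen by name: a gene was a member when its mouse symbol began with Cyp, a family number from 1 to 4, a subfamily letter and a gene number, and when its counts summed to at least 10 over all libraries. Pseudogenes were left out. Of the 26301 genes counted, 77 were members, namely 3 of family 1, 46 of family 2, 9 of family 3 and 19 of family 4. Another 8 symbols matched the pattern and were left out, 6 as pseudogenes and 2 for fewer counts (Cyp2w1 with 7 and Cyp4x1 with 3).

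RNA was sequenced from 12 mouse samples in 3 groups of 4. The control group was liver of wild-type mice. The sample titles call the control livers adult and give no age for the tumors. The paper reports a longer tumor latency in DKO than in TKO mice, so age can differ between the groups. The DKO group was liver tumors that arose spontaneously after Alb-Cre deletion of E2f7 and E2f8, repressors of cell cycle transcription, and in the TKO group Alb-Cre had deleted Rb1, the retinoblastoma gene, as well. Cre was driven by the albumin promoter, which the paper describes as hepatocyte-specific, and deletion in single cell types was not measured here. No tumor of wild-type mice and no tumor-free liver of the knockout mice was part of these libraries, so that genotype and tumor state cannot be told apart. In bulk tissue of this kind, fewer cells of a type and less RNA per cell cannot be told apart either. No source ties 2 libraries to the same mouse, and p-values measure the spread between these samples.

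Library totals ranged from 9165812 to 16424973 counts. Levels are given as counts per 1000000 (CPM) on TMM-scaled library sizes, and a difference between groups is a log2 fold change. Rb1 stood at 3.21 to 5.47 CPM in the TKO tumors and 6.52 to 11.3 CPM in the other 8 libraries, whereas E2f7 was at 0.542 to 1.11 CPM in controls and 0.236 to 1.84 CPM in tumors, and E2f8 at 4.52 to 8.98 and 7.59 to 52.2 CPM. Counts over a whole gene do not check the loss of single exons. Albumin, the defining hepatocyte marker, was at 37568 to 286273 CPM in every library, and every library held between 1093 and 2293 counts of Y-linked genes against 1 to 6 of Xist, so that all 12 came from males. DKO 4, TKO 4 and DKO 2 stood apart in Glul, glutamine synthetase of the hepatocytes next to the central vein. Glul was at 7472 CPM in DKO 4, 10331 CPM in TKO 4 and 3138 CPM in DKO 2, at 463 to 781 CPM in the controls and at 213 to 574 CPM in the other tumors, and the values without these 3 tumors, an alternative chosen after seeing the data, stand below beside each log2 fold change or median against control that turned its direction or moved by over 1.5 times without them.

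Cytochrome P450 enzymes of these families sit in the endoplasmic reticulum, hold a heme group through a conserved cysteine, and take electrons from P450 oxidoreductase (Por) to insert an oxygen atom into drugs, pollutants, steroids, fatty acids and bile acids. In the hepatocyte many of their genes are switched on by receptors that sense foreign compounds: AHR for family 1, CAR and PXR for the 2b, 2c and 3a subfamilies, and PPARA for the 4a subfamily. Most are expressed near the central vein and a few near the portal vein, and several mouse members differ between males and females under the control of growth hormone.

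The sequence that the members share lies around that cysteine. A 30-base stretch with the pattern of the heme-binding loop was found in the coding sequence of 70 of the 73 members that matched a transcript of the mm9 annotation, with the cysteine codon as TGC in 42 and TGT in 28. The cysteine is part of the loop pattern, so each stretch found holds it, and none was found in Cyp2b10, Cyp2s1 and Cyp3a59. The stretches of 6 members from all 4 families are shown with the cysteine codon in capitals, 5′ to 3′ on the coding strand. They were chosen because these enzymes are described below and differ in the bases around the cysteine.
Cyp1a2: ttcggcttgggaaagcgccggTGCattggg
Cyp2e1: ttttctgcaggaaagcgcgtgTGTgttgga
Cyp2c54: ttctcaacagggaaacggataTGTgcagga
Cyp2f2: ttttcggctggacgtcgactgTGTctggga
Cyp3a11: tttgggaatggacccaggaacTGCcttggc
Cyp4a12a: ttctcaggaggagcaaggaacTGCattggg
The cysteine codon was codon 456 in Cyp1a2, 437 in Cyp2e1, 435 in Cyp2c54, 436 in Cyp2f2, 443 in Cyp3a11 and 455 in Cyp4a12a.

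Many members arose by tandem duplication. Of the 73 placed members 66 lay in 8 clusters with gaps under 1000000 bases between neighbors, and 7 lay alone. In mm9 the largest cluster held 14 Cyp2c genes on chr19:39081509-40261823, followed by 13 Cyp2a, Cyp2b, Cyp2f, Cyp2g, Cyp2s and Cyp2t genes on chr7:26587494-27943687, 8 Cyp2d genes on chr15:82200958-82624675 and 8 Cyp3a genes on chr5:146106148-146924861. Reads were 40 bases long, and 61 of the 73 transcripts shared at least 1 word of 40 bases with another gene, with a median of 13.8% of words shared. Cyp3a41a shared 99.4% of its words and differed from Cyp3a41b at 2 coding bases, so their separate values are uncertain, as are those of Cyp4a12a and Cyp4a12b, which shared 55.5%. Cyp2u1 and Cyp2f2 shared none and Cyp2e1 shared 4.19%.

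Cyp2a4, a testosterone hydroxylase, and Cyp2a5, the coumarin hydroxylase, differed in their course between the libraries, as described below. Their coding sequences of 1485 bases were 98.5% identical with 23 differing bases. Coding bases 601 to 660 are shown from the mm9 transcripts with the 4 differing bases in capitals, because they hold codon 209, where a change is known to switch the preferred substrate between coumarin and the steroid.
Cyp2a4: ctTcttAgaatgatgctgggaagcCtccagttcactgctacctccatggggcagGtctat
Cyp2a5: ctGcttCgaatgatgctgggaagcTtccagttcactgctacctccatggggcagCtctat
The substitutions, with the base of Cyp2a4 first and positions counted from the start codon, were T603G, A607C, C625T and G655C, of which C625T in codon 209 and G655C in codon 219 change the residue. Cyp2a4 shared 46.1% of its 40-base words with Cyp2a5, so counts of the pair are partly uncertain.

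Promoters were read from RefSeq (GRCm38.p6), which held 64 of the 77 members. In the 250 bases before the start, on both strands, the TATA box letters TATAAA stood in 40.6% of member promoters and in 13% of all 27025, and the letters CAAAGT of an HNF4 site in 45.3% and 12.5%. The shares were 14.1% and 6.52% for GTTAAT (HNF1), 20.3% and 14% for CTTTGA (TCF), 15.6% and 11.9% for AGTTCA (CAR), 7.81% and 5.33% for TTGCAA (CEBP) and 17.2% and 28.2% for GCGTG (AHR). CAAAGT and the reverse of CTTTGA overlap in 5 letters. Duplicated members can share promoter bases, so the 64 promoters are not independent of each other. The 27025 were not limited to genes expressed in liver, and a difference between the shares was not tested. The last 120 bases are shown for 6 members whose levels are described below, with TATAAA and CAAAGT in capitals.
Cyp1a2 (chr9:57683656-57683775, minus strand): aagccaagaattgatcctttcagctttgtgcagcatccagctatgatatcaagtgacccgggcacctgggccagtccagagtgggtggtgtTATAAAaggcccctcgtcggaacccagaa
Cyp2e1 (chr7:140763699-140763818, plus strand): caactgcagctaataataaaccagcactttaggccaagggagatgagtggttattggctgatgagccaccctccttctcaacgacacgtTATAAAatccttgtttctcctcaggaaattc
Cyp2a4 (chr7:26307072-26307191, plus strand): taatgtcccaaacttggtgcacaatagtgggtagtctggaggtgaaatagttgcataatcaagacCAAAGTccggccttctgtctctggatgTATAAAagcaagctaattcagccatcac
Cyp2a5 (chr7:26835219-26835338, plus strand): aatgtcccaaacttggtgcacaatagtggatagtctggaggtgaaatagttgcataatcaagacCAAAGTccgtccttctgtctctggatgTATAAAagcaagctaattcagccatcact
Cyp2c38 (chr19:39463076-39463195, minus strand): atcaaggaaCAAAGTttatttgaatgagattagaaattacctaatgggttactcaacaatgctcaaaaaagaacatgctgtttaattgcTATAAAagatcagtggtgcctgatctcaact
Cyp2f2 (chr7:27119835-27119954, plus strand): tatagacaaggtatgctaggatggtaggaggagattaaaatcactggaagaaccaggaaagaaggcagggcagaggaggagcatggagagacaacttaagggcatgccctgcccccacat
Cyp2f2 held neither set of letters in this window.
The first question was how much of the P450 transcript pool of the liver was present in the tumors. The summed level of the 77 members was 25180, 37900, 36466 and 31593 CPM in the control livers, 21443, 22078, 21964 and 34694 CPM in the DKO tumors and 14938, 13587, 25894 and 44255 CPM in the TKO tumors. Between 1.25% (TKO 2) and 5.67% (TKO 4) of the counts of a library fell on the members, so that both the lowest and the highest of the 12 values were TKO tumors. The mean log2 level was lower than in controls by 0.40 in DKO and 0.56 in TKO, and the groups overlapped in both cases. Without TKO 4 the difference was -0.90 in TKO. Cyp2e1 alone held 21.8% to 31.2% of the sum in controls, 2.55% to 31.2% in DKO and 8.90% to 27.1% in TKO. Without Cyp2e1 the sum was 18008 to 26474 CPM in controls, 16911 to 23854 CPM in DKO and 12378 to 32252 CPM in TKO.

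**Figure D1:**
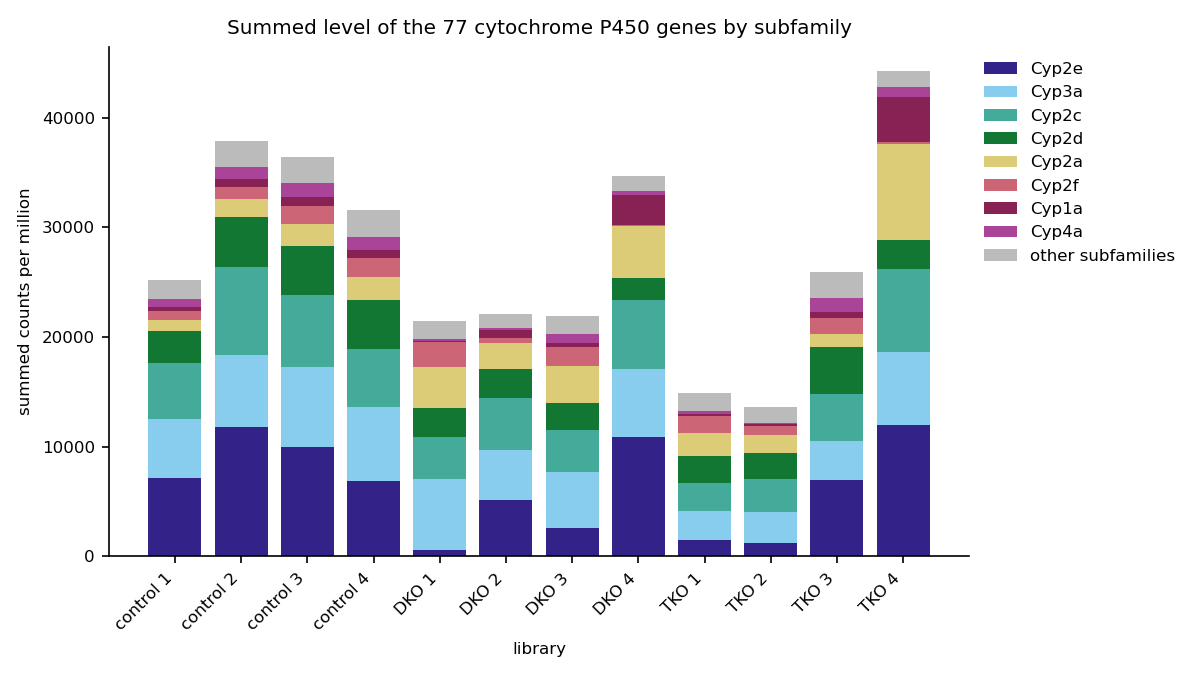
Summed CPM of the 77 genes in each library (bars), stacked by subfamily. Control livers reach 25180 to 37900, and the TKO tumors span the range from 13587 (TKO 2) to 44255 (TKO 4), where the Cyp2a genes add up to 8791 against at most 2135 in a control.

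Per kilobase of transcript the most abundant members over all libraries were Cyp2e1 (3495 CPM per kb), Cyp3a11 (1576), Cyp2a5 (599), Cyp2f2 (568) and Cyp2d10 (524), followed by Cyp2c70, Cyp1a2, Cyp2c29, Cyp2d26 and Cyp2a4 (460 to 512 CPM per kb). On the same scale Cyp2a4 had a mean level of 167 in control livers, 684 in DKO tumors and 529 in TKO tumors. Cyp2c29 had a mean level of 781 in controls, 207 in DKO and 395 in TKO.

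Of the 77 members 70 passed the filter on low counts and were tested, and 7 (Cyp2j11, Cyp2j12, Cyp2s1, Cyp2t4, Cyp4a29, Cyp4a30b and Cyp4f39, with 15 to 73 counts in all) were not. With edgeR's quasi-likelihood test and Benjamini-Hochberg adjustment over the 13882 tested genes, 0 members passed an adjusted p of 0.05 in DKO tumors against control livers, where 2.42% of all tested genes did. The same count was 0 in TKO against control (0.0864% of all tested genes), 0 in TKO against DKO (0%) and 0 in both tumor genotypes against control (2.48%). The lowest adjusted p of a member was 0.0538 (Cyp2u1) in DKO, 0.137 (Cyp2j6) in TKO, 0.476 (Cyp2u1) between the tumor genotypes and 0.0505 (Cyp2c54) in both against control. The standard error of a log2 fold change in DKO had a median of 0.38 over the members and 0.24 over all tested genes. DKO, TKO and both are set against the same 4 control livers, so their values are not independent of each other.

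At an unadjusted p under 0.05, 6 members were higher and 21 lower in DKO tumors, where 12.9% and 11.1% of all tested genes were. In TKO tumors 5 were higher and 14 lower (9.94% and 6.33% of all genes), and in both tumor genotypes 7 were higher and 19 lower (12.8% and 10.2%). Between TKO and DKO 4 members had an unadjusted p under 0.05 (9.0% of all genes). DESeq2, the tool of the study's methods, called 14 members in DKO (2 higher and 12 lower, of 71 with an adjusted p), where it called 10.4% of all genes. It called 5 in TKO (1 higher and 4 lower, of 71), where it called 3.49% of all genes, and 0 of 69 between the tumor genotypes (0.398%). In both against control it called 17 (3 higher and 14 lower, of 71), beside 9.49% of all genes. With edgeR the counts also turned on single libraries: without TKO 3 it called 9 members in DKO (beside 4.60% of all tested genes), 4 in TKO (1.63%) and 17 in both (7.19%). Without TKO 4 it called 2 in each, beside 2.75%, 0.0709% and 2.25% of all genes in the same order, and without DKO 3 it called 3 in DKO (2.93%) and 1 in both (2.83%).

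The 4 values of each group did not overlap for 15 members in DKO against control, of which 4 were higher and 11 lower in every tumor, against 8.87% and 7.30% of all tested genes. In TKO against control 2 were higher and 4 lower in every tumor (4.38% and 3.29% of all genes). For 0 members did TKO and DKO part (4.87% of all genes), and 1 member was higher and 3 were lower in all 8 tumors (2.20% and 1.46%). The median log2 fold change of the tested members was -0.14 in DKO and -0.41 in TKO (-0.64 without TKO 4), beside 0.02 in each over all tested genes. A fitted value below controls was found for 42 of the 70 members in DKO and 48 in TKO. Over the 13882 tested genes it was found for 6720 and 6593.

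**Figure D2:**
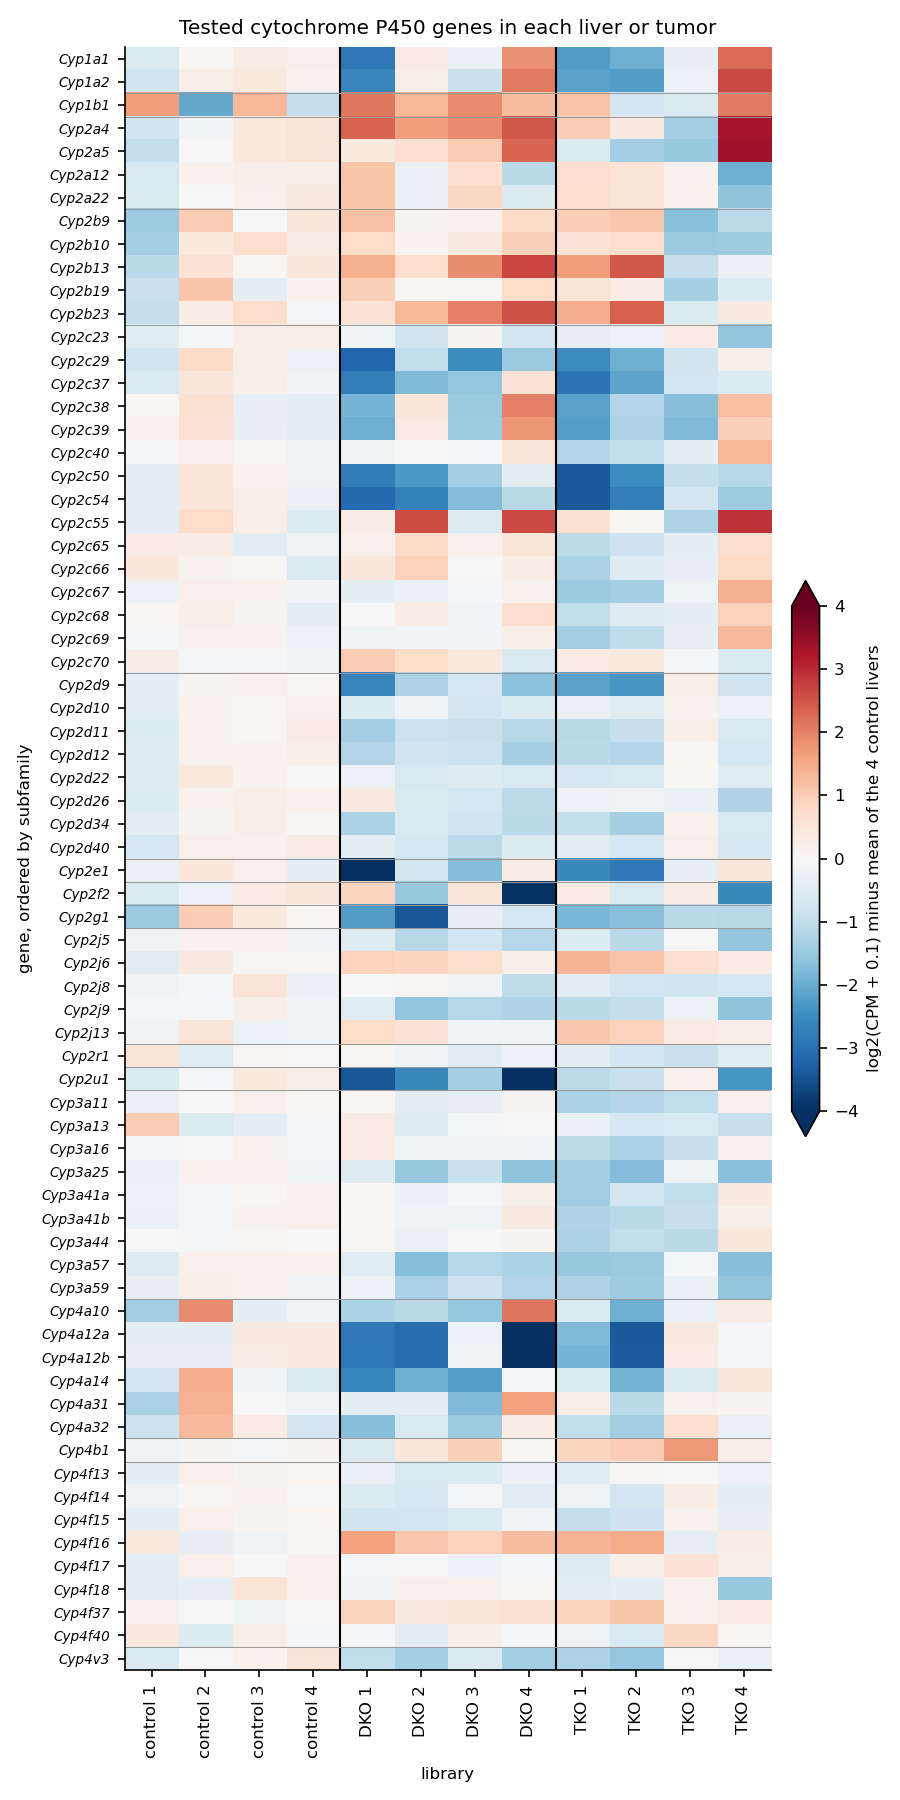
Difference of log2(CPM + 0.1) from the mean of the 4 control livers for the 70 tested genes (rows, ordered by subfamily) in the 12 libraries (columns); red is higher, blue is lower, and the colors end at 4 in each direction. Cyp2c50 and Cyp2c54 are blue in all 8 tumors, while Cyp1a1, Cyp1a2, Cyp2a4 and Cyp2a5 are reddest in DKO 4 and TKO 4.

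The members varied more within a group than genes at large. The SD of log2 CPM exceeded 1 for 7 of 70 members in control livers, 16 in DKO tumors and 27 in TKO tumors (10%, 22.9% and 38.6%), beside 3.44%, 6.42% and 8.29% of all tested genes. Among the members it was widest for Cyp2f2 in DKO (2.2) and for Cyp2a5 in TKO (2.3). TKO 4 held the highest of the 12 values for 13 members and the lowest for 10, and TKO 1 held the lowest for 18. For 13 of 70 members (18.6%) DKO 4 and TKO 4 were the 2 highest libraries, as they were for 4.24% of all tested genes, and for 5 members (7.14%, beside 3.19%) they were the 2 lowest.

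The family 1 genes, targets of the aryl hydrocarbon receptor, showed this spread. Cyp1a2, which oxidizes caffeine and aromatic amines, was at 366, 773, 835 and 703 CPM in controls, at 102, 773, 346 and 2681 CPM in DKO 1 to 4 and at 144, 135, 539 and 3979 CPM in TKO 1 to 4. DKO 4 and TKO 4 were above every control liver, whereas DKO 1, DKO 3, TKO 1 and TKO 2 were below every control. The log2 fold change was 0.54 ± 1.07 (SE) in DKO and 0.84 ± 1.08 in TKO, with edgeR adjusted p-values of 0.792 and 0.751. Its direction rested on those libraries: without DKO 2, DKO 4 and TKO 4 it was -1.58 in DKO and -1.30 in TKO.

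Cyp1a1, its neighbor on chromosome 9 and an oxidizer of polycyclic hydrocarbons, was far lower and varied in the same way. It was at 8.46, 13.5, 15.7 and 14.9 CPM in controls, 1.69, 15.9, 10.4 and 45.6 CPM in DKO and 2.65, 3.2, 10.1 and 59.98 CPM in TKO, and the ratio of Cyp1a2 to Cyp1a1 stayed between 33.2 and 66.3 in all 12 libraries. Cyp1b1, mainly an enzyme of other tissues, was at 7.64, 0.492, 6.1 and 1.17 CPM in controls, 5.66 to 10.4 CPM in DKO and 1.35 to 10.2 CPM in TKO. Epcam, 1 of the 5 bile duct markers given below and picked after its values were seen, was at 9.2, 0.738, 7.59 and 1.68 CPM in controls. The same 2 control livers were low for Epcam and Cyp1b1. The sum of the 5 markers varied far less than Epcam, at 28.7 to 49.4 CPM in controls, so Epcam does not stand for the list. The part of bile duct cells in the level of Cyp1b1 was not tested.

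Cyp2e1, the ethanol and acetaminophen oxidase and the most abundant member, was at 7172, 11821, 9992 and 6877 CPM in controls. It was at 547, 5167, 2604 and 10840 CPM in DKO 1 to 4 and at 1454, 1209, 6929 and 12003 CPM in TKO 1 to 4. The highest value was 19.8 times the lowest among DKO tumors and 9.93 times among TKO tumors, against 1.72 times among controls. The log2 fold change was -0.91 ± 0.84 in DKO (95% interval -2.73 to 0.92) and -0.73 ± 0.84 in TKO (-2.56 to 1.09), with edgeR adjusted p-values of 0.545 and 0.719. The size turned on single libraries: it was -1.69 in DKO without DKO 4 and -0.55 without DKO 1, and in TKO it was -1.50 without TKO 4, -0.43 without TKO 1 and -0.40 without TKO 2. Without the 3 tumors of high Glul it was -2.51 in DKO.

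Cyp2f2, the naphthalene oxidase of hepatocytes near the portal vein, was low where Glul was high. Its levels were 828, 1061, 1575 and 1719 CPM in controls, 2256, 437, 1740 and 79.3 CPM in DKO 1 to 4 and 1555, 815, 1529 and 208 CPM in TKO 1 to 4. The 3 lowest of the 12 values were DKO 4, TKO 4 and DKO 2, the 3 tumors with the highest Glul. It had a log2 fold change of -0.20 ± 0.80 in DKO and -0.34 ± 0.80 in TKO (edgeR adjusted p = 0.905 and 0.879). The direction in DKO turned without those tumors, to 0.62 without DKO 2 and DKO 4, where DKO 1 and DKO 3 were above every control, and to 0.07 without DKO 2 or 0.19 without DKO 4 alone. In TKO it was -0.002 without TKO 4.

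**Figure D3:**
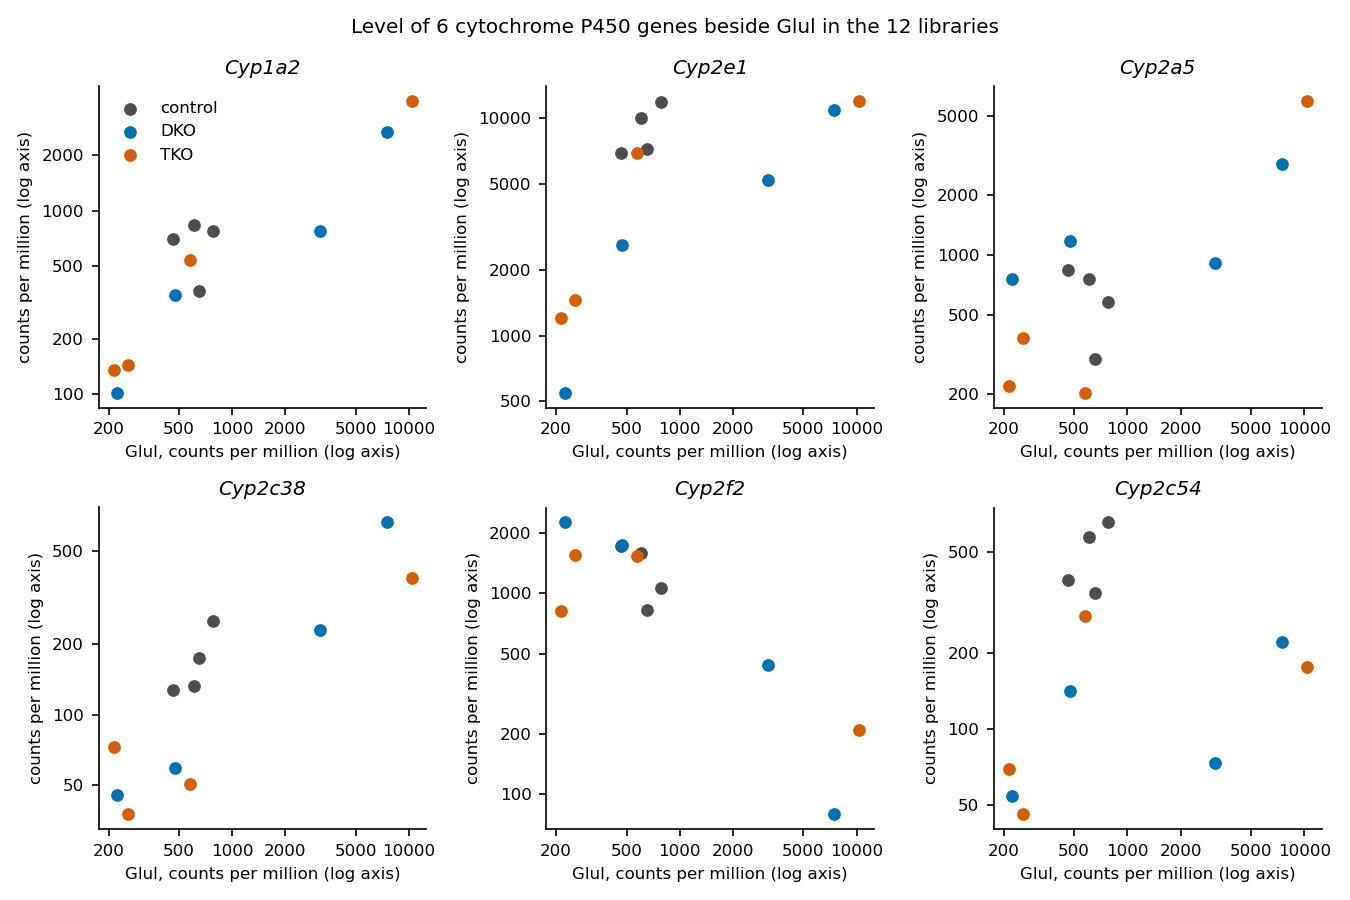
CPM of 6 members (vertical, log axis) beside those of Glul (horizontal, log axis), 1 point per library, colored by group. DKO 4 (Glul 7472) and TKO 4 (10331) lie at the top right for Cyp1a2, Cyp2a5 and Cyp2c38 and at the bottom right for Cyp2f2, while for Cyp2c54 all 8 tumors lie below the 4 controls.

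Zonation genes that are no members also varied widely between the tumors. The summed level of 10 pericentral genes, Glul among them, was 1973 to 2683 CPM in controls, 794 to 17671 CPM in DKO and 701 to 24662 CPM in TKO. Glul, which set the 3 tumors apart, alone made up 7472 CPM in DKO 4 and 10331 CPM in TKO 4, so this sum is not separate from that choice. The summed level of 10 periportal genes was 9676 to 12538, 2003 to 9905 and 1429 to 9875 CPM in the same order of groups. With edgeR 0 of the 10 pericentral genes passed the adjusted p in any comparison. At an unadjusted p under 0.05, 0 passed in DKO and 2 were higher in TKO (9.94% of all tested genes). Without the 3 tumors, which were set apart by Glul, 1 of these genes, all 10 had a fitted value below controls in both genotypes. Their part in the member levels was not tested.

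The 4 Cyp2a genes all had a fitted value above controls in both genotypes, a count that was 3 to 4 in DKO and 2 to 4 in TKO when 1 library was left out. Cyp2a4 was at 155, 248, 354 and 391 CPM in controls, 1348, 856, 996 and 1499 CPM in DKO 1 to 4 and 538, 349, 103 and 2642 CPM in TKO 1 to 4. All 4 DKO tumors were above all controls, whereas TKO 3 was below them. Its fitted log2 fold change was 2.03 ± 0.75 in DKO and 1.66 ± 0.74 in TKO (edgeR adjusted p = 0.125 and 0.291, DESeq2 adjusted p = 0.0316 in DKO). The TKO value rested on TKO 4 and was 0.20 without it. The exact 2-sided permutation test gave p = 0.0286 in DKO, the smallest it can give for 4 against 4. Every gene without overlap gets this value, and 8.87% of all tested genes were higher in every DKO tumor.

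Cyp2a5 was at 298, 577, 754 and 843 CPM in controls, 754, 911, 1166 and 2863 CPM in DKO and 381, 220.2, 202 and 5943 CPM in TKO. TKO 4 set the sign of its log2 fold change in TKO, which was 1.45 ± 0.98 with that library and -1.21 without it. The ratio of Cyp2a5 to Cyp2a4 lay between 1.93 and 2.33 in the controls and between 0.560 and 2.25 in the tumors. It was lowest in DKO 1, TKO 2 and TKO 1, the 3 tumors with the lowest Glul, and the sequences of the pair given above share words of read length, so that this ratio is partly uncertain.

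Of the Cyp2b genes, which include Cyp2b10, the classical target of CAR, all 5 had a fitted value above controls in DKO and 3 of 5 in TKO (2 to 5 when 1 library was left out). Cyp2b10 was low in every library, at 2.23 to 9.28 CPM in controls, 6.49 to 11.4 CPM in DKO and 1.99 to 9.52 CPM in TKO. Cyp2b13, a female-biased gene, was at 7.94, 25.2, 18 and 22.6 CPM in controls, 45, 27.7, 61.9 and 108 CPM in DKO and 54.7, 95.3, 8.97 and 14.2 CPM in TKO. The DKO tumors were all above the controls, and TKO 3 and TKO 4 lay among them. Its log2 fold change was 1.72 ± 0.67 in DKO and 1.24 ± 0.67 in TKO (edgeR adjusted p = 0.145 and 0.384), and in TKO it was 0.50 without TKO 2. That of its neighbor Cyp2b9, also female-biased, was 0.38 ± 0.61 and 0.05 ± 0.61, and without the 3 tumors of high Glul 0.30 in TKO. Cyp2b23 had 1.89 ± 0.70 and 1.37 ± 0.71, the latter 0.66 without TKO 2, at levels of at most 2.71 CPM.

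In the Cyp2c subfamily, whose products oxidize drugs and turn arachidonic acid into epoxides, 7 of 15 genes had a fitted value below controls in DKO and 10 of 15 in TKO. Without the 3 tumors of high Glul these counts were 12 and 14. Cyp2c54, on chr19:40112431-40148301 (mm9, minus strand), was at 345, 657, 575 and 388 CPM in controls, 54.3, 73.3, 141 and 221 CPM in DKO 1 to 4 and 46.1, 69.4, 281 and 176 CPM in TKO 1 to 4. Each of the 8 tumors was below each of the 4 controls. The log2 fold change was -2.0 ± 0.57 in DKO, -1.78 ± 0.56 in TKO and -1.89 ± 0.46 in both (edgeR adjusted p = 0.0737, 0.17 and 0.0505, DESeq2 adjusted p = 0.00235 in both).

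Cyp2c50, its neighbor with 95.2% of coding bases in common, was at 461, 814, 689 and 527 CPM in controls, 87.3, 124, 238 and 442 CPM in DKO and 59.3, 103, 312 and 278 CPM in TKO. All 8 tumors were again below the controls, with log2 fold changes of -1.48 ± 0.57 and -1.73 ± 0.57 (edgeR adjusted p = 0.138 and 0.182). Cyp2c54 shared 32.8% and Cyp2c50 39.2% of 40-base words with other genes, so their separate values are partly uncertain. Cyp2c37, the third gene of this group, was at 177, 372, 321 and 254 CPM in controls, 39.6, 79.4, 92.5 and 401 CPM in DKO and 34.8, 62.6, 160.1 and 184 CPM in TKO, with DKO 4 above every control.

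Cyp2c29, an inducible target of CAR that shared 2.93% of its words, was at 811, 2415, 1637 and 1197 CPM in controls, 154, 706, 244 and 503 CPM in DKO and 241, 364, 799 and 1661 CPM in TKO. Every DKO tumor was below every control, whereas TKO 4 lay among them. On the log2 scale it differed from controls by -1.91 ± 0.63 in DKO and -0.98 ± 0.62 in TKO (edgeR adjusted p = 0.0983 and 0.459, DESeq2 adjusted p = 0.0176 in DKO). Without the 3 tumors of high Glul the differences were -2.93 and -1.70.

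Cyp2c38 and Cyp2c39, both epoxygenases, kept a ratio of Cyp2c39 to Cyp2c38 between 2.06 and 2.66 over all 12 libraries while their levels differed widely. Cyp2c38 was at 174, 251, 132 and 128 CPM in controls, 45.4, 229.7, 59.3 and 663 CPM in DKO 1 to 4 and 37.5, 73.1, 50.6 and 383 CPM in TKO 1 to 4. Its 2 highest values were DKO 4 and TKO 4. Cyp2c55, which is low in liver, was at 1.54 to 3.93 CPM in controls and at 14.7, 14.9 and 17.6 CPM in the 3 tumors of high Glul, and its log2 fold change in DKO went from 1.80 to -0.15 without them. Cyp2c70, which makes the muricholic bile acids of the mouse, was at 777 to 1077 CPM in controls, 577 to 1782 CPM in DKO and 589 to 1135 CPM in TKO, lowest of all in DKO 4 and TKO 4.

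All 8 Cyp2d genes had a fitted value below controls in both genotypes. At an unadjusted p under 0.05, 7 of them were lower in DKO and 2 in TKO, beside 11.1% and 6.33% of all tested genes. Cyp2d10 shared 45.2% of its 40-base words with other genes, Cyp2d11 43.7%, Cyp2d9 37.2% and Cyp2d12 25.2%, so their separate values are partly uncertain. Cyp2d9, a male-biased testosterone hydroxylase, was at 834, 1166, 1217 and 1145 CPM in controls, 172, 461, 672 and 349.5 CPM in DKO 1 to 4 and 246, 217, 1272 and 627 CPM in TKO 1 to 4. The DKO tumors were all below the controls, and TKO 3 was above them. Its log2 fold change was -1.40 ± 0.54 in DKO and -0.89 ± 0.53 in TKO (edgeR adjusted p = 0.142 and 0.442), and in TKO it was -1.59 without TKO 3. Cyp2d10, the most abundant of the cluster per kilobase, was at 747 to 1140 CPM in controls, 589 to 886 CPM in DKO and 714 to 1122 CPM in TKO, with log2 fold changes of -0.51 ± 0.22 and -0.21 ± 0.22.

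Cyp2d12, named after its values were seen, was at 84.9, 135, 135 and 146 CPM in controls, 53.9, 70.1, 67.3 and 49 CPM in DKO and 57.6, 53.9, 128 and 74.8 CPM in TKO. The DKO tumors were below every control and TKO 3 was not. Its log2 fold change was -1.06 ± 0.27 in DKO and -0.67 ± 0.27 in TKO (edgeR adjusted p = 0.0576 and 0.245, DESeq2 adjusted p = 0.00691 in DKO). Among the fits that left out 1 library, edgeR called it only without TKO 3, in both genotypes (adjusted p = 0.0235 and 0.0436).

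Cyp2u1, a fatty acid hydroxylase that lies alone on chr3:130993409-131006145 (mm9, minus strand) and shares no word with another gene, had the largest fitted difference of the tested members in DKO. It was at 51.4, 71.1, 97.3 and 88.3 CPM in controls, 6.82, 12.6, 29.5 and 3.13 CPM in DKO 1 to 4 and 35.9, 40.01, 85.4 and 14.6 CPM in TKO 1 to 4. The DKO tumors were all below the controls, and of the TKO tumors TKO 3 lay among them. The log2 fold change was -2.56 ± 0.63 in DKO and -0.81 ± 0.60 in TKO (edgeR adjusted p = 0.0538 and 0.536, DESeq2 adjusted p = 0.00105 in DKO). In TKO it was -1.35 without TKO 3 and -0.53 without TKO 4. Among the fits that left out 1 library, edgeR called it in DKO only without TKO 3, TKO 4 or DKO 3 (adjusted p = 0.0337, 0.0451 and 0.0252).

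In the Cyp2j subfamily, arachidonic acid epoxygenases, fitted values lay on both sides of 0. Cyp2j6, named after its values were seen, was at 41.2, 72.3, 57.7 and 57.3 CPM in controls, 107, 102, 90.6 and 65.9 CPM in DKO and 143, 123, 89.1 and 70.4 CPM in TKO, with a log2 fold change of 0.79 ± 0.22 in both (edgeR adjusted p = 0.0678, DESeq2 0.0134). Cyp2j9, also named after its values were seen, was at 4.39 to 5.56 CPM in controls, 1.5 to 3.37 CPM in DKO and 1.49 to 3.99 CPM in TKO. All 8 tumors were below all controls for Cyp2j9, with a log2 fold change of -1.0 ± 0.26 (edgeR adjusted p = 0.0601, DESeq2 0.00874). Cyp2g1, an enzyme of the olfactory mucosa, was at 1.48 to 8.73 CPM in controls, 0.316 to 3.43 CPM in DKO and 1.15 to 1.99 CPM in TKO, with log2 fold changes of -1.47 ± 0.62 and -1.68 ± 0.63 (edgeR adjusted p = 0.174 and 0.222).

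**Figure D4:**
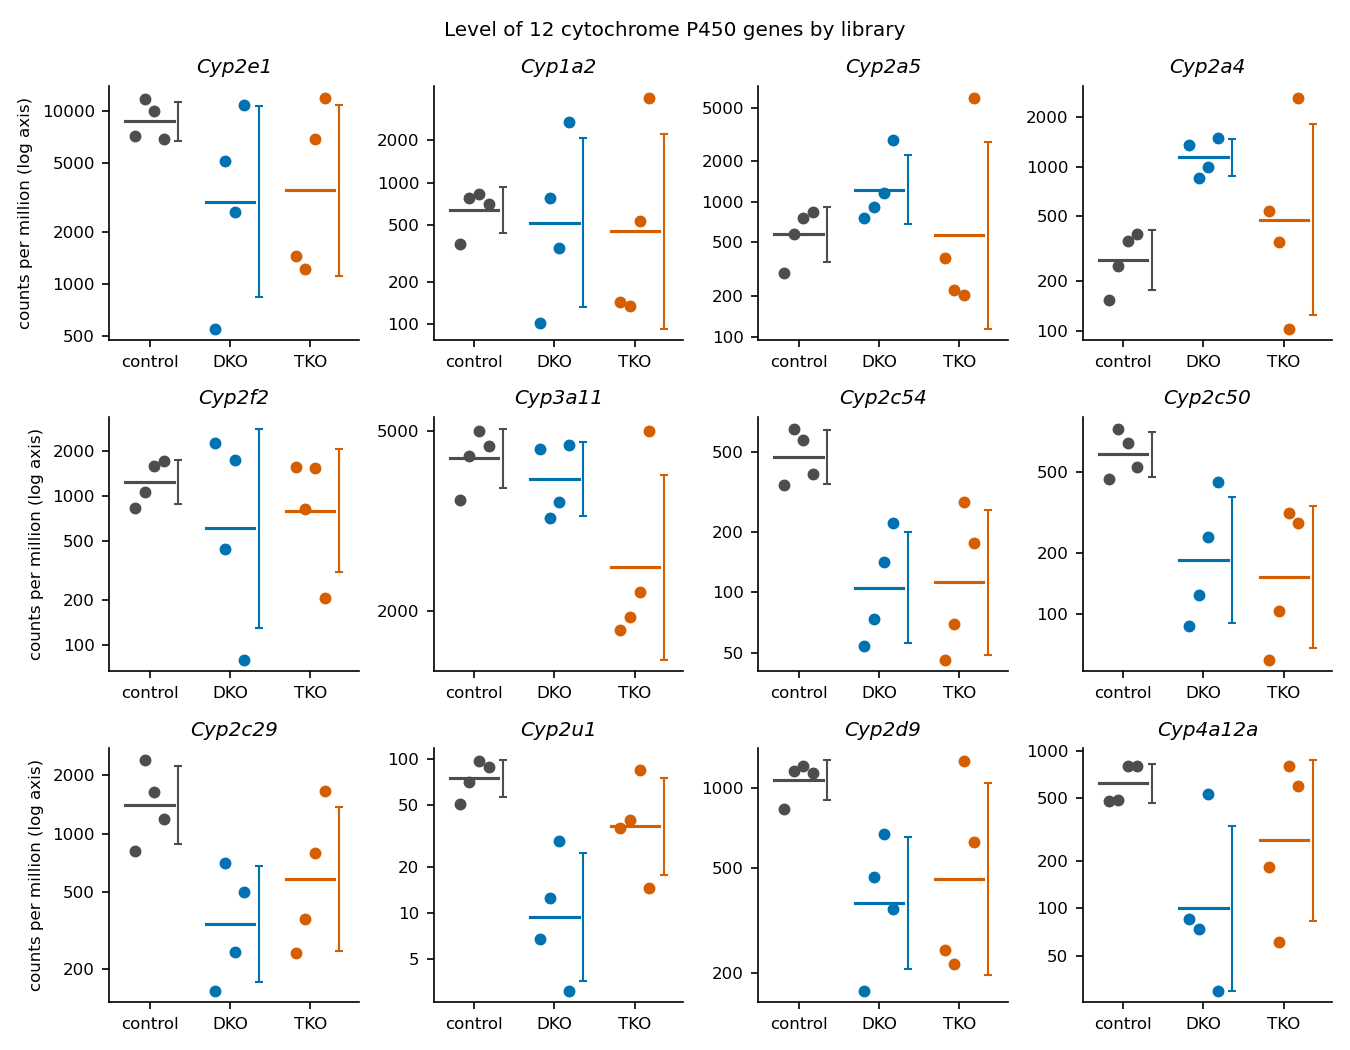
CPM (log axis) of 12 members in each library (points) by group; the horizontal line is the mean of log2 CPM and the bar at its right spans 1 SD of log2 CPM in each direction (n = 4). The 8 tumors lie below the 4 controls for Cyp2c54 and Cyp2c50, and the DKO tumors lie above them for Cyp2a4.

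The Cyp3a genes, targets of PXR and major oxidizers of drugs, showed more than 1 pattern. Cyp3a11, the most abundant of them, was at 3519, 4397, 4993 and 4618 CPM in controls, 4549, 3204, 3470 and 4641 CPM in DKO 1 to 4 and 1815, 1934, 2195 and 4996 CPM in TKO 1 to 4. TKO 1 to 3 were below all other libraries, and TKO 4 was level with the highest control. Its log2 fold change was -0.14 ± 0.35 in DKO and -0.68 ± 0.36 in TKO (edgeR adjusted p = 0.836 and 0.37), and without TKO 4 it was -1.15 in TKO. Cyp3a16, Cyp3a41a, Cyp3a41b and Cyp3a44, named after their values were seen, also had their 3 lowest values in TKO 1 to 3, as in Cyp3a16 with 67 to 87 CPM there and 149 to 208 CPM in the other libraries. Of the fits that left out 1 library, only that without TKO 4 called Cyp3a16 and Cyp3a44 lower in TKO (edgeR adjusted p = 0.0449 and 0.0449). Cyp3a16 shared 18.9% and Cyp3a44 27.2% of 40-base words with other genes, so their separate values are partly uncertain.

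Cyp3a25 was at 588, 785, 797 and 655 CPM in controls, 486, 247, 374 and 231 CPM in DKO and 269, 210.4, 607 and 219.7 CPM in TKO. Every DKO tumor was below every control, and of the TKO tumors TKO 3 lay among them. Cyp3a25 shared 37% of its 40-base words with other genes, so its separate values are partly uncertain. Its fold change was -1.08 ± 0.35 (log2) in DKO and -1.11 ± 0.36 in TKO (edgeR adjusted p = 0.0973 and 0.171). Among the fits that left out 1 library, edgeR called it in DKO or TKO only without TKO 3 (adjusted p = 0.0366 and 0.0228). DESeq2 called it in both genotypes, with adjusted p-values of 0.0308 and 0.0468. Without the 3 tumors of high Glul its log2 fold change was -0.72 in DKO. All 9 Cyp3a genes had a fitted value below controls in TKO and 8 of 9 in DKO (5 to 9 when 1 library was left out).

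Among the fatty acid hydroxylases of family 4, the PPARA targets of the 4a subfamily varied between control livers too. Cyp4a14 was at 11.4, 53.6, 17.8 and 13 CPM in controls, 3.07, 4.9, 4.14 and 18.3 CPM in DKO and 13.2, 5.12, 13 and 27.2 CPM in TKO, with a log2 fold change of -1.63 ± 0.68 in DKO (edgeR adjusted p = 0.165), which was -0.88 without control 2, -2.55 without DKO 4 and -2.71 without the 3 tumors of high Glul. Cyp4a10 was at 15.3, 149.7, 31.4 and 36.9 CPM in controls, 16.8, 19.1, 13.8 and 179 CPM in DKO and 26.8, 10.5, 33.3 and 49.2 CPM in TKO. Control 2 was the highest control and DKO 4 the highest DKO tumor for both genes.

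Cyp4a12a, the male-biased member of the subfamily, was at 476, 488, 794 and 798 CPM in controls, 86.2, 74.2, 529.8 and 30.01 CPM in DKO 1 to 4 and 182, 60.9, 801 and 595 CPM in TKO 1 to 4. DKO 3, TKO 3 and TKO 4 were not below the controls, and the other 5 tumors were. It differed from controls by -1.83 ± 0.87 (log2) in DKO and -0.64 ± 0.85 in TKO (edgeR adjusted p = 0.225 and 0.761), and Cyp4a12b, which shares its words, gave -1.78 and -0.66. In TKO Cyp4a12a was at -0.28 without TKO 2 and -1.20 without TKO 3, and in DKO without the 3 tumors of high Glul Cyp4a12a was at -1.06 and Cyp4a12b at -1.02. Among the fits that left out 1 library, edgeR called both in DKO only without DKO 3, with log2 fold changes of -3.33 and -3.30 (adjusted p = 0.0455 and 0.0436).

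Cyp4f16, of the subfamily that hydroxylates leukotrienes and fatty acids, was at 6.97, 4.18, 4.74 and 5.64 CPM in controls, 16.2, 11.3, 10.2 and 12.6 CPM in DKO and 13.8, 14.9, 4.22 and 6.57 CPM in TKO. The DKO tumors were all above the controls, and TKO 3 and TKO 4 lay among them. Its log2 fold change was 1.22 ± 0.35 in DKO and 0.87 ± 0.35 in TKO (edgeR adjusted p = 0.0758 and 0.251, DESeq2 0.0196 in DKO), and it shared 29.3% of its words with 1 other gene, Gm9705. Cyp4f37, named after its values were seen, was the 1 member higher in all 8 tumors, at 1.97 to 2.67 CPM in controls and 2.69 to 5.05 CPM in tumors, a gap of less than 0.1 CPM between the nearest libraries.

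**Figure D5:**
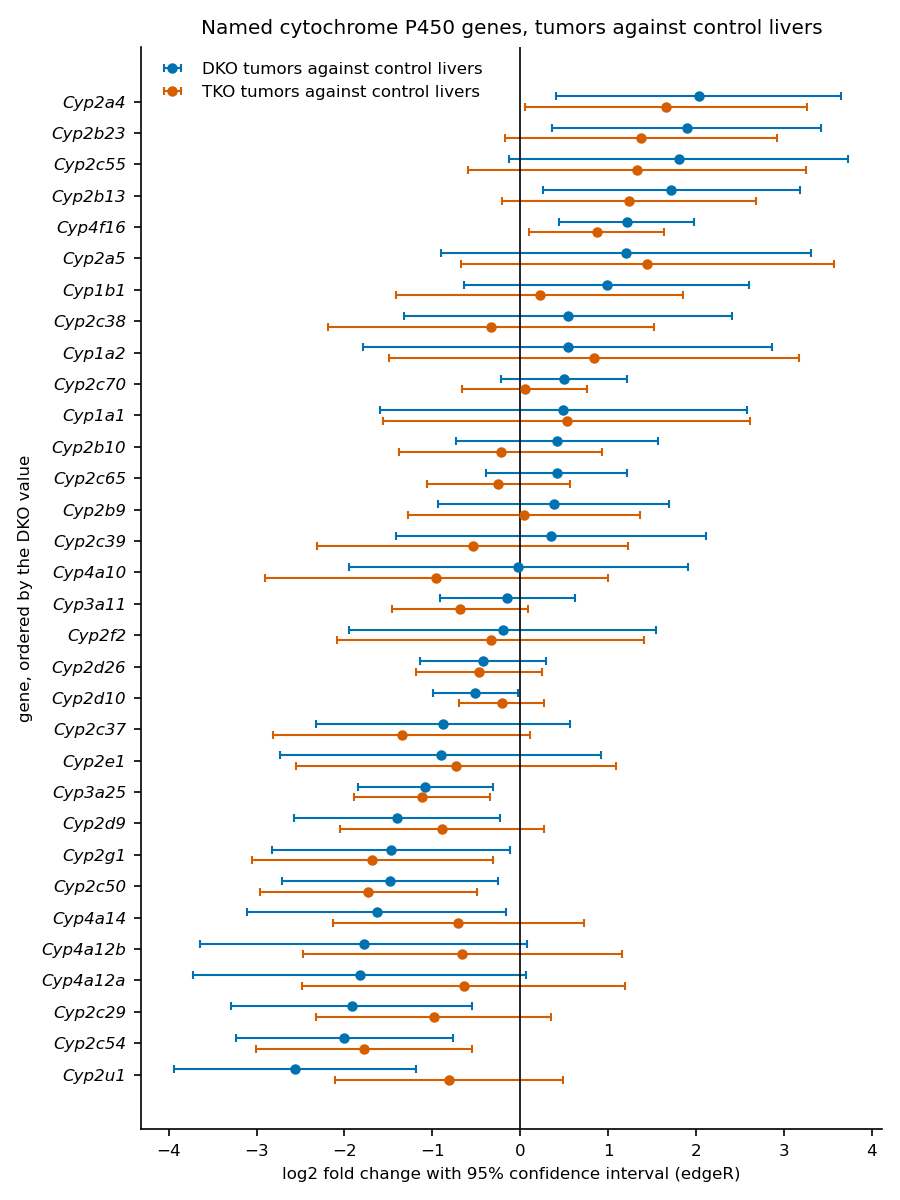
Log2 fold change of the 32 named members in DKO (blue) and TKO tumors (orange) against the same 4 control livers, with 95% confidence intervals from edgeR, ordered by the DKO value. Cyp2u1 has the lowest DKO value (-2.56) and Cyp2a4 the highest (2.03), and 0 of these members pass an adjusted p of 0.05.

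Between TKO and DKO tumors, the comparison that bears on Rb1, the 4 members with an unadjusted p under 0.05 were Cyp2u1, Cyp4b1, Cyp3a16 and Cyp2r1, the vitamin D hydroxylase. The log2 difference of TKO from DKO was 1.75 ± 0.62 for Cyp2u1 (95% interval 0.41 to 3.09), with an edgeR adjusted p of 0.476 and an exact permutation p of 0.0571. It was 0.72 ± 0.32 for Cyp4b1 (0.40 without TKO 3), -0.66 ± 0.28 for Cyp3a16 (-1.09 without TKO 4) and -0.44 ± 0.20 for Cyp2r1, the last 3 named after their values were seen. The values of the genotypes overlapped for all 4, and the mice of the groups can differ in age, as given above.

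Grouped by receptor, the 3 AHR-induced members had a median log2 fold change of 0.54 in DKO and 0.53 in TKO, beside 0.02 over all genes. Its direction rested on DKO 4 and TKO 4: the median was -0.49 in DKO without DKO 4, -1.10 in DKO without DKO 2 and DKO 4, and -1.30 in TKO without TKO 4, where all 3 members had a fitted value below controls. The median was -0.52 and -0.87 for the 10 members induced by CAR and PXR. Of these 4 were lower and 0 higher at an unadjusted p under 0.05 in each genotype. Over all tested genes 11.1% were lower in DKO and 6.33% in TKO, and 12.9% and 9.94% were higher. Without the 3 tumors of high Glul the median of the 10 members was -1.21 and -1.42. It was -0.47 and -0.63 for the 4 induced by PPARA, and turned with control 2: without it the median was 0.17 and 0.08. Without the 3 tumors of high Glul it was -1.89 in DKO. CAR itself (Nr1i3) was at 50.4, 105, 102 and 73.8 CPM in controls, 35.6, 26.6, 29.4 and 64.8 CPM in DKO and 24.2, 33.5, 57 and 36.3 CPM in TKO, with log2 fold changes of -1.08 and -1.13 and edgeR adjusted p-values of 0.0867 and 0.154.

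PXR (Nr1i2) had log2 fold changes of 0.19 and -0.26, and Ppara of -0.37 and -0.38 (-0.56 in DKO without the 3 tumors of high Glul). Ahr was at 28 to 67.9 CPM in controls, 113 CPM in DKO 4, 107 CPM in TKO 4 and 26.6 to 50.1 CPM in the other tumors. The 2 tumors highest in Cyp1a2 were thus also highest in Ahr, as they were for 4.24% of all tested genes. A link between the levels of Ahr and Cyp1a2 was not tested. Of the 14 tested receptors and cofactors 1 passed the adjusted p: the bile acid receptor Nr1h4 (FXR) fell in DKO and in both, in DKO from 109 to 148 CPM in controls to 53.9 to 93.1 CPM (log2 fold change -0.85, edgeR adjusted p = 0.0425). It passed in 5 of the 12 fits that left out 1 library each. Over all tested genes 2.42% passed in DKO, 0.0864% in TKO and 2.48% in both. Of 17 hepatocyte transcription factors 0 passed in DKO, where 7 were lower at an unadjusted p under 0.05 (11.1% of all tested genes). In TKO 0 passed, and in both 1, Cebpb, passed (lower, edgeR adjusted p = 0.0491, passed in 2 of those 12 fits).

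Of the 6 redox partners 0 passed the edgeR adjusted p in any comparison. At an unadjusted p under 0.05, 1 was higher and 1 lower in DKO (12.9% and 11.1% of all tested genes). Por, the electron donor of the members, was at 326, 237, 280.2 and 451 CPM in controls, 111, 114, 210.2 and 440 CPM in DKO and 155, 187, 113 and 357 CPM in TKO, highest among the tumors in DKO 4 and TKO 4. Its log2 fold changes were -0.56 and -0.67 (edgeR adjusted p = 0.484 and 0.50), and -1.01 and -1.10 without the 3 tumors of high Glul. Of 16 other phase I enzymes 0 passed in DKO or TKO. In both 1, the alcohol dehydrogenase Adh4, was lower (edgeR adjusted p = 0.0479, passed in 1 of the 12 fits), where 2.48% of all tested genes passed. Of the 12 tested P450 genes of other families, which act on sterols, bile acids and retinoids, 0 passed in any comparison. At an unadjusted p under 0.05, 3 were higher and 2 lower in DKO (12.9% and 11.1% of all tested genes).

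The 4 male-biased members (Cyp2d9, Cyp4a12a, Cyp4a12b and Cyp2u1) had a median log2 fold change of -1.80 in DKO and -0.74 in TKO, and the 10 female-biased members 0.05 and -0.26. Without DKO 3 the median of the male-biased members was -3.32 in DKO, and in TKO it was -1.28 without TKO 3 and -0.46 without TKO 2. That of the female-biased members was -0.07 in DKO without DKO 4, 0.01 without the 3 tumors of high Glul, and -0.95 in TKO without TKO 4. The summed level of the male-biased members was 1582 to 2449 CPM in controls, 302 to 1475 CPM in DKO and 345 to 2504 CPM in TKO. Of 10 male-biased liver genes outside the families 1, Nudt7, fell in DKO (edgeR adjusted p = 0.0488, passed in 4 of the 12 fits that left out 1 library). In both 1, Slco1a1, fell (edgeR adjusted p = 0.0405, passed in 4). Over all tested genes 2.42% passed in DKO and 2.48% in both. Of 10 female-biased liver genes outside the families 0 passed the adjusted p, with 4 higher at an unadjusted p under 0.05 in DKO (12.9% of all tested genes). All libraries carried Y-linked transcripts, as given above.

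Markers of other cells were low beside those of hepatocytes. The summed level of 5 hepatocyte markers was 86863 to 142273 CPM in controls, 133535 to 333775 CPM in DKO and 50460 to 256863 CPM in TKO. Its members differed in direction: in DKO Alb had a log2 fold change of 0.92 (edgeR adjusted p = 0.49), whereas Ttr, the thyroxine carrier, had -0.86 (edgeR adjusted p = 0.162), at 2229, 6423, 5501 and 4171 CPM in controls and 2776, 2767, 1950 and 2588 CPM in DKO. In the same order the sums were 28.7 to 49.4, 24.4 to 108 and 31.2 to 54.9 CPM for 5 bile duct markers and 97.8 to 139, 109 to 165 and 118 to 244 CPM for 5 endothelial markers. They were 116 to 328, 54.8 to 289 and 91.1 to 343 CPM for 5 macrophage markers and 225 to 312, 124 to 472 and 174 to 323 CPM for 5 stellate cell markers. For 5 lymphocyte markers they were 9.89 to 31.1, 8.49 to 26.6 and 10.2 to 16.9 CPM, for 3 neutrophil markers 2.95 to 5.42, 1.82 to 10.3 and 1.42 to 7.21 CPM and for 3 erythroid markers 564 to 727, 401 to 1516 and 559.5 to 1389 CPM. The sums overlapped between the groups for each list of other cells, no marker was at 0 in any library, and 0 markers passed the edgeR adjusted p. At an unadjusted p under 0.05, 2 endothelial markers were higher and 1 hepatocyte marker, Ttr, was lower in DKO (12.9% and 11.1% of all tested genes). In TKO 1 endothelial marker was higher and 1 macrophage marker lower (9.94% and 6.33%). Their part in the member levels was not tested.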

How the data were processed

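Poly(A) RNA of 12 mouse samples (4 control livers, 4 DKO and 4 TKO tumors) was read on the SOLiD platform in 40-base reads. The authors aligned them to mm9 with BWA and deposited raw counts per gene from FeatureCounts; versions, strand setting and treatment of reads with several matches are not given in the sources used here. Of the Entrez identifiers 24191 had a symbol, and 73 of the 77 members matched the GENCODE vM1 annotation of mm9, which gave coordinates, transcripts and lengths. Promoters came from RefSeq (GRCm38.p6).

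Genes passing filterByExpr (13882) were fitted with edgeR 4.0.16 (R 4.3.3) by quasi-likelihood with TMM scaling, all 12 libraries in 1 fit, and p-values were adjusted by Benjamini-Hochberg over all of them. DESeq2 1.42.0 and limma 3.58.1 (voom with quality weights) were alternatives, beside other scalings, filters, a replicate block, a covariate from sex-linked genes and leaving out each library. The members and gene lists were chosen with earlier results of these data known.

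Members are named where they passed the adjusted p, were among the 5 highest or 5 lowest log2 fold changes of a comparison, were among the 10 most abundant per kilobase, or stood on a list of 14 well-known members; others are marked as named after their values were seen. Intervals and totals of 9165812 to 16424973 counts cover these libraries only.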

Additional observations from a re-analysis of the deposited data

Results flagged for a closer look

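Among the 32 named members, 96 groups of 4 libraries were looked at for a library far from the other 3, by Dixon's test, which chance passes in about 1 in 20 groups. In 4 groups a library stood that far apart. Cyp2d26 was at 617 CPM in control 1, against 988 to 1085 CPM in the other controls (gap over range 0.834), and at 389.6 CPM in TKO 4, against 745 to 777 CPM in the other TKO tumors (0.938). Cyp2d9 was at 834 CPM in control 1, against 1145 to 1217 CPM in the other controls (0.840). Cyp4a10 was at 179 CPM in DKO 4, against 13.8 to 19.1 CPM in the other DKO tumors (0.874).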

How the results depend on the processing

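The count of 0 members called by edgeR in DKO, TKO and both against control moved with the processing, and the cause was not tested. The share of all tested genes called under the same setting follows each count in parentheses. DESeq2 called 14 in DKO (10.4%), 5 in TKO (3.49%) and 17 in both (9.49%), limma voom with quality weights 18 in DKO (13.0%) and 20 in both (13.1%), and the fit of the compared libraries alone 11 in DKO (5.65%). Without a filter 1 was called in DKO (1.23%) and 1 in both (1.21%), with at least 10 counts in every library 1 in both (3.29%), and with the covariate from sex-linked genes 2 in both (1.64%). Leaving out 1 library gave 0 to 9 in DKO (0% to 4.60%), 0 to 4 in TKO (0% to 1.63%) and 0 to 17 in both (0% to 7.19%), each highest without TKO 3. The count stayed at 0 with the size factors of DESeq2, with total counts, with near-identical copies summed, and without DKO 2, DKO 4 and TKO 4, an alternative chosen after seeing the data, which called 0.00698% of all genes in DKO and 0% in TKO and in both.

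Replicate numbers were shared between groups, but the libraries came from different mice. Deviations of same-numbered libraries correlated at -0.174 to 0.37. For replicates 3 and 4 of DKO and TKO they were 0.37 and 0.342, where the highest with another number was -0.101 and -0.109. For replicate 1 of control and TKO the values were 0.224 and 0.2. In every other case a library of another number correlated more. No source used here says what the numbers stand for. With the replicate block 6 members were called in DKO (3.67% of all genes) and 5 in both (3.18%), and Cyp1a2 had log2 fold changes of -0.520 in DKO, -0.573 in TKO and -0.547 in both.

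Of 1048 alternative fold changes of single members 26 reversed and 54 newly passed the adjusted p. Cyp1a2 gave -0.832 in DKO, -1.071 in TKO and -0.952 in both with voom, and -1.584, -1.303 and -1.443 without the 3 tumors of high Glul. Leaving out 1 library moved it from -0.718 (without DKO 4) to 0.906 in DKO, from -1.303 (without TKO 4) to 1.214 in TKO and from -0.385 (without TKO 4) to 0.879 in both. Cyp2a5 gave -0.491 in TKO with voom, -1.212 in TKO and -0.289 in both without the 3 tumors, and with 1 library left out -1.212 (without TKO 4) to 1.815 in TKO and -0.008 (without TKO 4) to 1.511 in both. Cyp2c55 gave -0.145 in DKO, -0.080 in TKO and -0.113 in both without the 3 tumors, and -0.075 (without TKO 4) to 1.683 in TKO. Between TKO and DKO, leaving out 1 library gave -1.281 (without TKO 4) to 0.855 (without DKO 4) for Cyp4a10, -2.079 to 0.191 for Cyp2c39 and -2.211 to 0.287 for Cyp2c38 with the same libraries, and leaving out the 3 tumors 0.616 for Cyp4a10 and 0.031 for Cyp2c38.

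The summed level kept its sign against control under every alternative, at -0.577 to -0.326 in DKO and -0.897 to -0.329 in TKO, and lay at -0.495 to 0.073 between the genotypes.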

Other observations

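The pseudogene Cyp2d13, outside the members by rule, held 47139 counts. It was at 410 ± 105 CPM (SD, n = 4) in controls, 194 ± 29.9 CPM in DKO and 272 ± 108 CPM in TKO, with a log2 fold change of -1.08 in DKO (edgeR adjusted p = 0.0620). Among P450 genes of other families Cyp17a1, an enzyme of steroid synthesis, was at 489 CPM in DKO 1 and at 1.46 to 9.24 CPM in the other 11 libraries. The sulfotransferase Sult3a1 was at 480 CPM in DKO 4 and at 1.07 to 10.5 CPM in the other 11. Both were chosen after their values were seen.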
